A study of Mus musculus with 14 samples.

Results

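The mitochondrial ribosomal proteins were taken as every gene of the array whose symbol is Mrpl or Mrps followed by a number, with the brightest probe set standing for a gene that has several. This gave 77 of 19938 genes, 48 named Mrpl and 29 named Mrps. All 77 matched a RefSeq gene of the same symbol. A further RefSeq protein-coding gene of that name pattern, Mrpl53, shares its probe set with another gene and was not analysed here.

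The samples were cultures of 4T1, a mouse mammary tumor cell line of BALB/c origin that metastasizes to the lung. Their total RNA was hybridised to Affymetrix Mouse Gene 1.0 ST arrays, and values are log2 expression after robust multi-array averaging (RMA). In 3 samples the cells carried lentiviral human CNOT7, a deadenylase of the CCR4-NOT complex, with an epitope tag, a mouse Pol2 promoter and blasticidin selection, and their reference was 3 vector control samples. In the knockdown arm, 2 samples carried the hairpin sh74 and 3 carried the hairpin sh75 against Cnot7, and 3 carried a scrambled hairpin, shScramble, all under puromycin selection. The sources used here do not say whether samples of a group were separate transductions or cultures, and the p-values reflect no more than the variation among the samples at hand.

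Mitochondria keep a ribosome of their own, which makes the few respiratory chain subunits encoded by mitochondrial DNA. Its RNAs come from mitochondrial DNA, but all of its proteins are encoded in the nucleus, made in the cytosol and imported. The large subunit joins amino acids and feeds the chain through an exit tunnel toward the inner membrane, and the small subunit reads the mRNA. Part of the proteins have counterparts in bacterial ribosomes and the others are specific to mitochondria. Because subunits must be supplied together, these genes are often studied as a coordinately expressed family in growing and tumor cells. By structure, 50 of the 77 proteins belong to the large subunit and 26 to the small subunit. Mrps18a and Mrps30 carry a small-subunit name but sit in the large subunit, and Mrps36, which belongs with the alpha-ketoglutarate dehydrogenase complex, was kept in neither.

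RefSeq promoter windows, which run from 250 bases before to 50 bases after a gene's start in build GRCm38.p6, were matched to 68 of the 77 members (74 windows). Not matched were Mrpl4, Mrpl13, Mrpl15, Mrpl19, Mrpl38, Mrpl54, Mrps28, Mrps34 and Mrps35. Both strands were searched for 3 short motifs of factors known to act at genes for mitochondrial proteins: CCGGAAG for the ETS family, which includes GABP, AAGATGGC for YY1 and GCGCATGCG for NRF1. The ETS letters were in 33.8% of member windows and 8.86% of all 32851 windows. The YY1 letters were in 16.2% of member windows and 2.75% of all windows, and the NRF1 letters were in 9.46% of member windows and 1.75% of all windows. At least 1 motif was in 37 of 68 member genes, or 54.4%, and in 14.1% of all 27025 genes. The ETS and YY1 letters can share a stretch of AAG, and the NRF1 letters can match both strands 1 base apart and were then counted as 1 window. The stretches shown here place these letters before the start of 4 members described below and of Mrpl32, with the match in capitals as it reads on the gene's own strand. Mrps26, Mrpl27 and Mrps12 were among the 6 members with an unadjusted p under 0.05 with sh74. Mrps16 had the lowest within-group correlation with the mean of the other members, and Mrpl32 held both the NRF1 and YY1 letters. Mrpl48, also among those 6, held the ETS letters 34 bases before a further start inside the gene, which is not shown. Of the same 6, Mrpl33 held the ETS letters from 3 bases before its start, also not shown, and Mrpl15 had no matched window.
Mrps26 (chr2:130563733-130563756, plus strand, ETS): tccgcggccaCTTCCGGgccgggc
Mrpl27 (chr11:94653726-94653752, plus strand, ETS): tccgcaagacCCGGAAGtagatctatc
Mrps16 (chr14:20393548-20393574, minus strand, ETS): tgggggcgctCTTCCGGgcttcaggct
Mrps12 (chr7:28742003-28742030, minus strand, YY1): catggacgcaGCCATCTTggagtggaaa
Mrpl32 (chr13:14613106-14613134, minus strand, NRF1): tttgacccttGCGCATGCGcaagaggggc
The matches begin 14 bases before the start in Mrps26, 55 in Mrpl27, 74 in Mrps16, 199 in Mrps12 and 87 in Mrpl32. A match describes letters in a window and is not evidence that a factor binds there.

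The arrays were alike in scale, with array medians between 6.31 and 6.38. The 6 epithelial markers all lay above the limit of 4.89 set from 1035 olfactory receptor probe sets, and their mean per sample ran from 10.26 to 11.41. Of the markers of other cell types, 1 of 3 leukocyte, 2 of 3 endothelial, 2 of 3 fibroblast and 2 of 3 adipocyte genes exceeded that limit. The means of these over all samples were 5.88 for Cd3e, 5.21 for Cdh5, 4.92 for Kdr and 6.73 for Col1a1. They were 7.95 for Pdgfra, 4.96 for Adipoq and 5.70 for Plin1, so that Kdr and Adipoq lay close to the limit. Cnot7 itself averaged 8.03 ± 0.50 in sh75 samples, against 10.32 ± 0.12 in shScramble samples (SD, n = 3 each), and fell by 2.29 (limma adjusted p = 0.00911). It averaged 9.02 ± 0.44 in sh74 samples (SD, n = 2), 1.31 below shScramble, with a limma adjusted p of 0.279. It averaged 10.25 ± 0.34 in CNOT7 over-expression samples and 10.25 ± 0.24 in vector control samples (SD, n = 3 each), and whether a mouse probe set reads the human construct was not tested. All 77 members lay above the olfactory limit on average (lowest mean 5.37). For 5 of them the array neighbours of the probe set used lie on a chromosome other than the gene's, so that the signal may come from a copy, which was not tested: Mrpl27 (gene on 11, neighbours on 18), Mrpl41 (gene on 2, neighbours on 7), Mrpl48 (gene on 7, neighbours on 4), Mrpl51 (gene on 6, neighbours on 2) and Mrps33 (gene on 6, neighbours on 7).

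No member passed an adjusted p of 0.05 in any of 7 comparisons (limma, Benjamini-Hochberg over 21789 probe sets). In cells with a Cnot7 hairpin most members nonetheless had values below shScramble. With sh74, 69 of 77 members were lower and 8 higher, with a median difference of -0.18, against 0.00 over all probe sets. With sh75, 60 were lower and 17 higher, with a median of -0.13, against -0.00 over all probe sets. With CNOT7 over-expression, 46 were lower and 31 higher than in vector control, with a median of -0.02, against 0.01 over all probe sets. The sign of that median turned when 1 sample was left out: it was 0.0049, with 36 members lower, without CNOT7 over-expression replicate 3. With vector control replicate 1 left out it was 0.0020, with 38 lower, and with replicate 3 left out 0.0080, with 33 lower. It was -0.05, with 54 lower, without CNOT7 over-expression replicate 2, and -0.08, with 52 lower, when vector control replicate 2 was left out. In RNA of whole cultures, fewer cells that express a gene and less of its RNA per cell cannot be told apart.

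**Figure D1:**
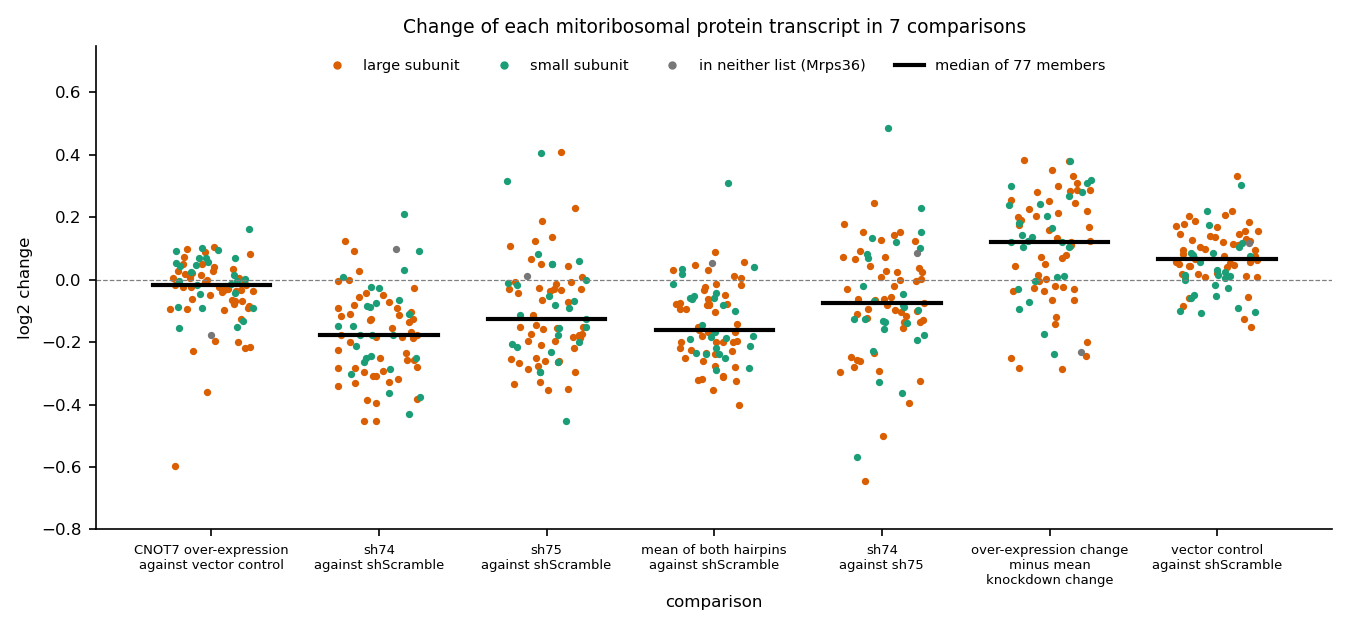
Log2 change of each of 77 mitoribosomal protein transcripts (points, coloured by subunit) in 7 comparisons, with the median over members as a bar. The medians were -0.02 for CNOT7 over-expression, -0.18 for sh74, -0.13 for sh75 and 0.07 for vector control against shScramble, and no single point passed an adjusted p of 0.05.

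The lower values were not spread evenly over the hairpin samples. In sh74 replicate 1, 71 of 77 members lay below their own mean over the 14 samples, with a median deviation of -0.31. In sh74 replicate 2 only 37 did, with a median of 0.01. In sh75 replicate 2, 65 members lay below their mean, with a median of -0.20, while sh75 replicates 1 and 3 had medians of -0.02 and 0.01. The shScramble samples had medians of 0.10, 0.02 and -0.01. In the over-expression arm the medians were 0.07, 0.11 and 0.02 in CNOT7 over-expression samples and 0.13, -0.01 and 0.12 in vector control samples. So 1 sample of each hairpin was low across most of the family, and the others of both groups had medians between -0.02 and 0.01. Over all probe sets the median deviation of the same arrays was -0.00 in sh74 replicate 1 and -0.01 in sh75 replicate 2. Cytosolic ribosomal proteins had medians of -0.10 and -0.03 in these samples, and oxidative phosphorylation subunits -0.17 and -0.02. For both of these families sh74 replicate 1 was the lowest sample of the series, so its low values were not particular to the mitochondrial ribosome.

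**Figure D2:**
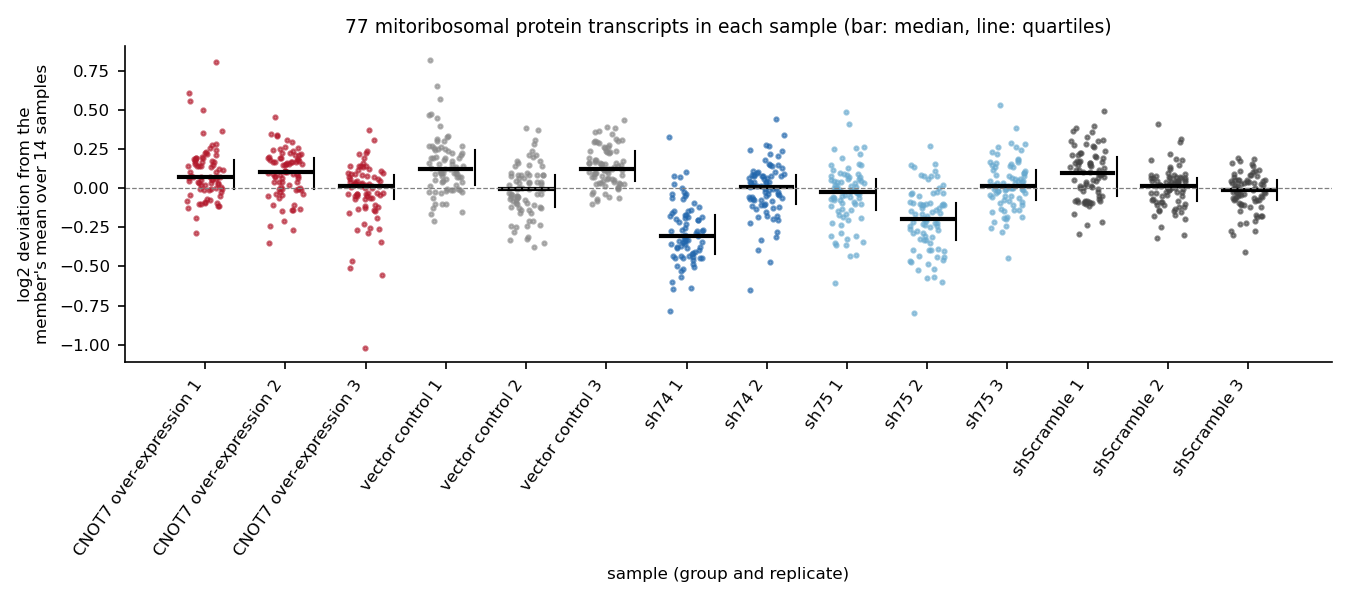
Log2 deviation of 77 transcripts from their own means over 14 samples (points), by sample, with the median as a thick bar and the quartiles as a thin line. The sh74 replicate 1 median is -0.31 and the sh75 replicate 2 median is -0.20, below every other sample.

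Leaving out these samples removed most of the difference. They were chosen for their low member medians, so the direction of that effect was set by the choice. Without sh74 replicate 1 the median with sh74 was -0.02, with 41 of 77 members lower than in shScramble. Without sh74 replicate 2 it was -0.32, with 72 lower, and Mrpl15 was then called (limma adjusted p = 0.0417) among 122 probe sets called in all, against 2 with both sh74 samples. Without sh75 replicate 2 the median with sh75 was -0.04, with 48 lower, and without shScramble replicate 1 it was -0.08, with 51 lower. A small difference in the remaining samples would not have been detectable with so few arrays, since the median standard error of a member's change was 0.15 with sh74 and 0.13 with sh75.

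Other transcripts were also low or high in the same samples. Esrp1, an epithelial splicing regulator, was at 5.65 in sh74 replicate 1 and at 10.65 in sh74 replicate 2. It was at 6.50 in sh75 replicate 2, but also at 6.49 in sh75 replicate 3, at 5.42 in CNOT7 over-expression replicate 3 and at 5.21 in shScramble replicate 3, whose member medians were 0.01, 0.02 and -0.01. In the samples with Esrp1 from 9.73 to 11.01, member medians ran from -0.02 to 0.13. The sample lowest in Esrp1 had the lowest member median of its group in sh74, CNOT7 over-expression and shScramble. This did not hold in sh75 or vector control. Myc, a growth regulator known to act on ribosome genes, was at 10.74 in sh74 replicate 1 and 10.93 in sh75 replicate 2, but at 10.73 in CNOT7 over-expression replicate 3 and 10.88 in sh75 replicate 1. Mki67, a marker of dividing cells, was at 11.89 in sh74 replicate 1 and 11.20 in sh75 replicate 2, the highest and lowest values of the series. Some markers of an epithelial or mesenchymal state also differed among these samples, while others differed less. The epithelial Krt19 and Cdh1 were at 9.72 and 10.28 in sh74 replicate 1, and at 11.07 and 11.27 in sh74 replicate 2. Krt8 and Krt18 were at 11.68 and 12.12, against 11.87 and 12.23, in the same samples. In CNOT7 over-expression replicate 3 Krt8 and Krt18 were at 11.80 and 12.18, above 11.13 and 11.73 in replicate 1. Zeb1, a mesenchymal-state marker, was at 5.57 and 5.39 in sh74 replicates 1 and 2. Vim, a mesenchymal filament protein, was at 13.06 in sh74 replicate 1 and 13.02 in sh75 replicate 2, against 10.08 in sh74 replicate 2, but it was also at 13.01 in CNOT7 over-expression replicate 3 and 12.81 in shScramble replicate 3. Epcam, an epithelial adhesion protein, was at 5.98 in sh74 replicate 1, the lowest of the series, and 7.85 in sh75 replicate 2, with 10.01 in sh74 replicate 2, 7.89 in sh75 replicate 3 and 7.71 in CNOT7 over-expression replicate 3. Pdgfra, a fibroblast marker, was at 8.85 in sh74 replicate 1 and 9.25 in sh75 replicate 2, and also at 8.89 in CNOT7 over-expression replicate 3. Col1a1, the other fibroblast marker above the olfactory limit, went the other way, at 6.69 in sh74 replicate 1 and 6.81 in sh74 replicate 2. It was at 6.67 in sh75 replicate 2, against 6.78 and 6.83 in sh75 replicates 1 and 3, and Dcn was not above the limit. The member median of CNOT7 over-expression replicate 3 was 0.02, the lowest of its group. All 3 mesenchymal-state markers exceeded the olfactory limit, and their mean per sample ran from 9.29 to 10.46 in sh74, from 9.95 to 10.40 in sh75 and from 9.26 to 10.28 in shScramble samples. Whether any of these had a part in the low values was not tested.

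Among the structural groups, the large-subunit proteins with bacterial counterparts were lower with sh74 in 29 of 30 members (median -0.18) and with sh75 in 26 of 30 (median -0.16). The 20 measured mitochondria-specific large-subunit proteins were lower with sh74 in 18 (median -0.16) and with sh75 in 14 (median -0.11). Of the 15 small-subunit proteins with bacterial counterparts, which include those at the decoding site, 12 were lower with sh74 (median -0.15) and 11 with sh75 (median -0.05). Of the 11 mitochondria-specific small-subunit proteins, 10 were lower with sh74 (median -0.18) and 9 with sh75 (median -0.16). This list includes Mrps28, to which some nomenclatures give a bacterial counterpart, and which was 0.32 higher with sh75, the largest rise in the list. No list held a called member, and the lists were not tested against each other.

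**Figure D3:**
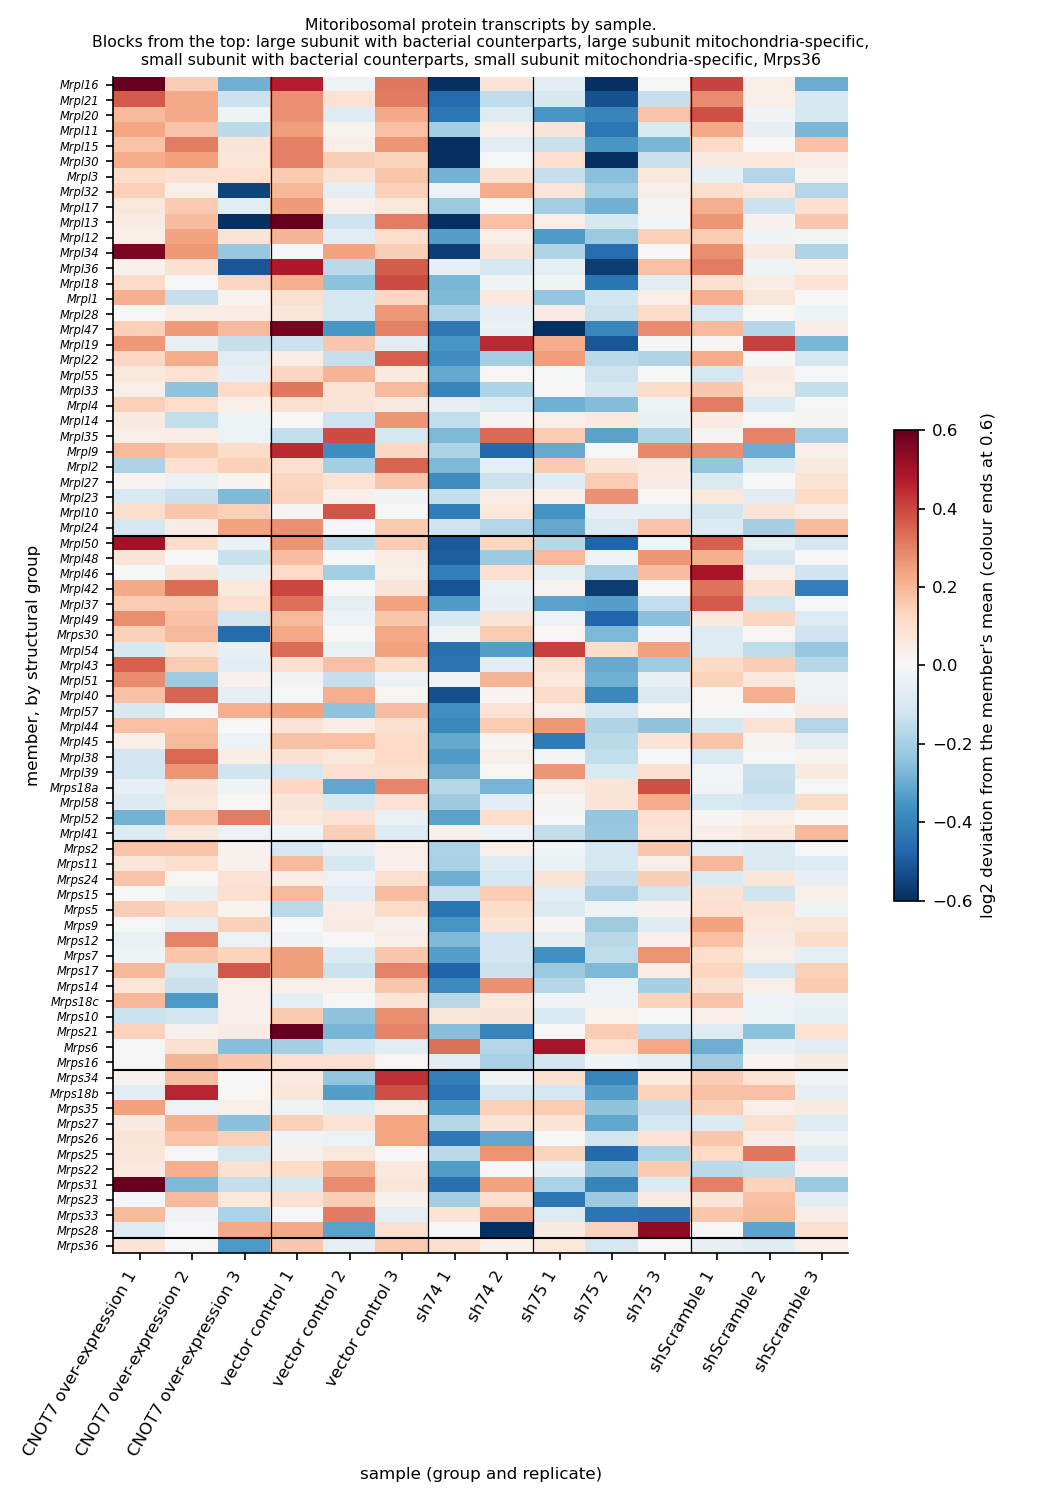
Log2 deviation of each member (rows, blocks by structural group) from its mean in each sample (columns), with colour ending at 0.6. The column of sh74 replicate 1 is blue in 71 of 77 rows and that of sh75 replicate 2 in 65, in all 4 large blocks.

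The central protuberance is a part of the large subunit that contacts the small subunit. It gave 6 of 6 members lower with sh74 (median -0.26) and 5 of 6 with sh75 (median -0.11). The stalk proteins Mrpl10, Mrpl11 and Mrpl12, which recruit translation factors, were lower in 3 of 3 with both hairpins (medians -0.18 with sh74 and -0.16 with sh75). Around the tunnel exit, where the new chain leaves, 6 of 6 members were lower with sh74 (median -0.15) and 4 of 6 with sh75 (median -0.06). Of these, Mrpl47 was 0.26 lower with each hairpin, but its other, dimmer probe set was 0.03 higher with sh74 and 0.11 higher with sh75.

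With sh74, 6 members had an unadjusted p under 0.05, all lower than in shScramble, where 3.55% of all probe sets were lower and 3.78% higher at that level. The groups did not overlap in 19 members that were lower and in 1 that was higher, Mrps10, against 10.6% and 11.4% of all probe sets. The called share of all probe sets was 0.00918%. The lowest p belonged to Mrps26, a mitochondria-specific protein of the small subunit. It was at 8.38 and 8.50 in sh74 samples, against 8.98, 8.86 and 8.79 in shScramble samples. Both sh74 values lay below every other value of the series. The change was -0.43 ± 0.10 (SE), a fold of 0.741, with an unadjusted p of 8.4e-04 and a limma adjusted p of 0.279.

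Mrpl48, a central protuberance protein, was at 7.68 and 7.96 in sh74 samples, against 8.39, 8.08 and 8.18 in shScramble samples. The groups did not overlap, and the change was -0.39 ± 0.12 (SE, limma adjusted p = 0.495). Its probe set is among the 5 with neighbours on another chromosome, and the gene has no other. Mrpl15, a core protein of the large subunit, was at 7.57 and 8.14 in sh74 samples, against 8.32, 8.21 and 8.38 in shScramble samples. Its change was -0.45 ± 0.15 (SE, limma adjusted p = 0.539). The others under an unadjusted p of 0.05 were Mrps12, a decoding-site protein (-0.30), Mrpl27, which sits near the site of peptide bond formation (-0.25, and -0.27 in its other probe set, which has neighbours on its own chromosome), and Mrpl33, a core protein with a bacterial counterpart (-0.31). The members that lay highest relative to shScramble by p were Mrps6 (0.21), Mrps36 (0.10) and Mrps10 (0.09), with limma adjusted p-values from 0.853 upward. The Mrps6 value rested on sh74 replicate 1, at 11.13, against 10.62 in sh74 replicate 2, and was -0.042 without replicate 1.

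With sh75, 6 members had an unadjusted p under 0.05 in the lower direction and 2 in the higher, where 3.82% of all probe sets were lower and 4.44% higher at that level. The groups did not overlap in 8 lower and 4 higher members, against 6.76% and 6.71% of all probe sets, and the called share of all probe sets was 0.0918%. The lowest p was that of a member above shScramble, Mrpl54, a mitochondria-specific protein of the large subunit. It was at 9.32, 9.02 and 9.16 in sh75 samples, against 8.83, 8.76 and 8.68 in shScramble samples. The change was 0.41 ± 0.11 (SE, limma adjusted p = 0.305). All 3 sh75 values exceeded those of shScramble, but all 3 vector control values did so as well, at 9.25, 8.87 and 9.15.

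Mrps33, a mitochondria-specific small-subunit protein, was at 8.27, 7.91 and 7.90 in sh75 samples, against 8.51, 8.54 and 8.39 in shScramble samples. The change was -0.45 ± 0.13 (SE, limma adjusted p = 0.370), and sh74 samples, at 8.43 and 8.59, overlapped shScramble. A further Mrps33 probe set, whose neighbours lie on chromosome 6, gave a change of -0.44, close to that of the first. Mrps6, a small-subunit protein with a bacterial counterpart, was at 11.29, 10.88 and 11.03 in sh75 samples, against 10.50, 10.75 and 10.73 in shScramble samples (change 0.41, limma adjusted p = 0.488). Mrps18a, a large-subunit protein despite its name, was next above shScramble (0.23). Mrpl4, which lines the exit tunnel, was 0.26 lower, Mrpl37, a mitochondria-specific large-subunit protein, 0.35 lower, and Mrpl15 0.35 lower, with limma adjusted p-values from 0.509 to 0.512.

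**Figure D4:**
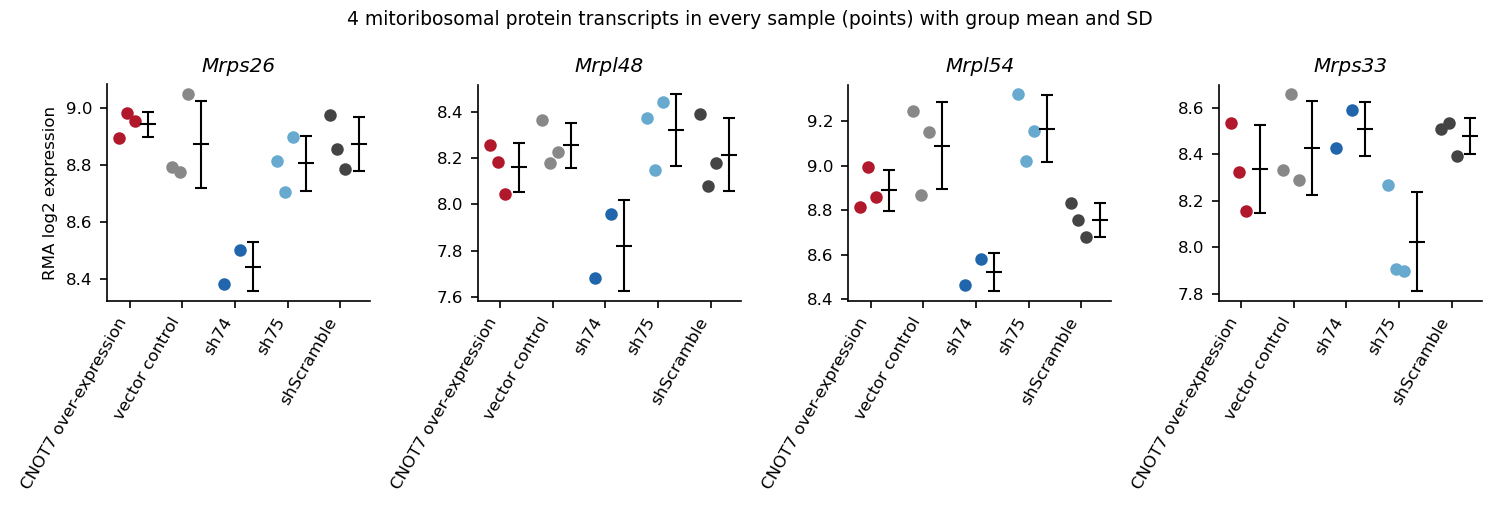
RMA log2 expression of Mrps26, Mrpl48, Mrpl54 and Mrps33 in every sample (points) with group mean and SD to the right of each group. Mrps26 and Mrpl48 are lowest in sh74 samples, whereas Mrpl54 is above shScramble in sh75 samples and below it in sh74 samples.

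Set directly against each other, the hairpins gave 50 of 77 members lower with sh74 than with sh75 (median -0.07). This direction rested on sh74 replicate 1: without it 23 of 77 were lower and the median was 0.12. Without sh74 replicate 2 the median was -0.25, with 66 lower, without sh75 replicate 2 it was -0.14, with 59 lower, and without sh75 replicate 3 it was -0.02, with 41 lower. At an unadjusted p under 0.05, 9 members were lower and 1 higher with sh74, where 4.35% of all probe sets were lower and 4.58% higher, and 0.174% of all probe sets were called. Mrpl54 differed most by p: its sh74 values of 8.46 and 8.58 lay below all 3 sh75 values of 9.32, 9.02 and 9.16. Its difference of -0.64 ± 0.12 (SE) had a limma adjusted p of 0.0701, the smallest of any member in any comparison. Mrpl48 (-0.50, limma adjusted p = 0.197) and Mrps26 (-0.36, limma adjusted p = 0.232) were lower with sh74, and Mrps33 (0.48, limma adjusted p = 0.317) was higher, followed by Mrpl49 (0.24) and Mrps25 (0.23). The methods' t-test at p under 0.01 gave 1 of 77 members here, where it gave 188 or 0.863% of all probe sets, and 0 members in the other 4 comparisons of 2 groups, where it gave from 0.321% to 0.812% of all probe sets. After Benjamini-Hochberg adjustment it gave 0 members and 0 probe sets in all.

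In the mean of both hairpins against shScramble, 65 of 77 members were lower (median -0.16), but without sh74 replicate 1 the median was -0.07, with 52 lower. At an unadjusted p under 0.05, 7 members were lower and 1 higher, against 3.6% and 3.7% of all probe sets, and 0.0184% of all probe sets were called. The groups did not overlap in 4 lower and 0 higher members, against 1.85% and 2.08% of all probe sets. Mrpl15 was lower with each hairpin and had the lowest p, with a mean change of -0.40 ± 0.12 (SE, limma adjusted p = 0.545). Its sh75 values were 8.07, 7.86 and 7.93, below all shScramble values. Mrps26 (-0.25) and Mrps12 (-0.24) followed by p, and Mrps6 was 0.31 above shScramble (limma adjusted p = 0.654), with Mrpl54 (0.09) and Mrps36 (0.05) next in that direction.

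CNOT7 over-expression left 1 member under an unadjusted p of 0.05 in the lower direction and 0 in the higher, where 1.09% of all probe sets were lower and 1.49% higher. The groups did not overlap in 2 lower and 0 higher members, against 3.42% and 4.3% of all probe sets, and 0% of all probe sets were called. That member was Mrpl23, a tunnel-exit protein, at 8.35, 8.31 and 8.18 in CNOT7 over-expression samples, against 8.58, 8.47 and 8.42 in vector control samples. Its change was -0.21 ± 0.09 (SE, limma adjusted p = 0.9999), with a 95% interval from -0.41 to -0.02. Mrpl33 (-0.23) and Mrpl54 (-0.20) were the next lower members by p, and Mrps2, a small-subunit protein with a bacterial counterpart, was 0.16 higher. Mrps26 (0.07) and Mrpl51 (0.10) came next among higher members, and the Mrpl51 value was -0.027 without CNOT7 over-expression replicate 1.

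The over-expression change minus the mean knockdown change was above 0 in 54 of 77 members (median 0.12). The median was 0.07 without sh74 replicate 1, with 32 members below 0, and 0.20 without sh74 replicate 2, with 17 below 0. At an unadjusted p under 0.05, 0 members were below 0 and 2 above it, Mrps26 (0.32) and Mrps12 (0.31), with Mrpl15 (0.38) next by p, against 1.67% and 1.82% of all probe sets, and 0% of all probe sets were called. Below 0 the smallest p-values were those of Mrpl54 (-0.29), Mrps36 (-0.23) and Mrpl23 (-0.20). The controls of the 2 arms differed as well: 62 of 77 members were higher in vector control than in shScramble samples (median 0.07). Leaving out 1 sample in turn moved that median: it was 0.13 with vector control replicate 2 left out, 0.04 with replicate 1 or 3 of those samples or shScramble replicate 3 left out, and 0.11 with shScramble replicate 1 left out. There, 0 members were lower and 1 higher at an unadjusted p under 0.05, against 1.94% and 1.77% of all probe sets, with 0% called. That member was Mrpl54, 0.33 higher in vector control (limma adjusted p = 0.99999). Mrps22 (0.22) and Mrpl3 (0.21) followed, and Mrpl51 (-0.13), Mrps12 (-0.11) and Mrpl41 (-0.08) had the smallest p-values among lower members.

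Members differed in how much they varied within groups. The pooled standard deviation had a median of 0.17 and ran from 0.09 in Mrpl27 to 0.45 in Mrpl13, a core protein of the large subunit. Mrpl13 was at 10.04, 10.18 and 8.96 in CNOT7 over-expression samples, against 10.81, 9.86 and 10.29 in vector control samples. Its change of -0.60 was the largest of any member with over-expression, and its spread of 1.85 was the widest over the 14 samples. It was also low in sh74 replicate 1, at 9.20, against 10.17 in sh74 replicate 2. Mrpl16, Mrps31, Mrpl47 and Mrpl19 were the next most variable. By structural group, the widest range over samples was that of Mrpl13, of Mrpl50 (1.01), of Mrps21 (1.05) and of Mrps31 (1.26). Mrps16, Mrps2, Mrpl55 and Mrps26 followed Mrpl27 as the least variable.

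After group means were removed, the members varied together: the mean correlation over pairs of members was 0.28 across the 14 samples, and 79.1% of pairs were positive. The mean was 0.15 for 65 cytosolic ribosomal proteins, 0.07 for 89 subunits of oxidative phosphorylation, and 0.0041 for all genes. These pairs share arrays, so the values are descriptions. Without the sh74 samples the members' mean was 0.19, without the sh75 samples 0.27, and over the 9 vector control, CNOT7 over-expression and shScramble samples alone 0.13, against 0.0014 for all genes there. The mean was thus lower where the sh74 samples were left out. With group means kept in, a first component held 46.9% of the members' variance about their own means over the 14 samples.

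Within groups, individual members followed the mean of the others to different degrees, with 72 of 77 correlations above 0 and a median of 0.57. Mrpl50, a mitochondria-specific large-subunit protein, had the highest value at 0.92. It was at 7.82 and 8.46 in sh74 samples and 8.16, 7.84 and 8.30 in sh75 samples, against 8.68, 8.28 and 8.22 in shScramble samples. Its lowest values were thus those of sh74 replicate 1 and sh75 replicate 2. Mrps16, a small-subunit protein with a bacterial counterpart, had the lowest value at -0.57, and stayed between 8.54 and 8.95 throughout. Mrps6 followed at -0.22.

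The cytosolic ribosome and the respiratory chain were read for comparison. Of 65 cytosolic ribosomal proteins, 56 were lower with sh74 (median -0.08) and 44 with sh75 (median -0.04). Of 89 oxidative phosphorylation subunits, 66 were lower with sh74 (median -0.11) and 49 with sh75 (median -0.01). The difference between these families and the mitochondrial ribosome was not tested.

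Other genes of mitochondrial translation also held no called member in any comparison (limma). The 4 measured mitoribosomal proteins with other names, Dap3, Chchd1, Ptcd3 and Gadd45gip1, were lower in 4 of 4 with both hairpins, with medians of -0.30 with sh74 and -0.25 with sh75. Chchd1, of the small subunit, was 0.41 lower with sh74 (limma adjusted p = 0.639) and Ptcd3, also of the small subunit, 0.48 lower with sh75 (limma adjusted p = 0.585). Of 14 translation factors, 10 were lower with sh74 (median -0.18) and 12 with sh75 (median -0.09). They included Taco1, an activator of cytochrome oxidase subunit translation (-0.38 with sh74, limma adjusted p = 0.362), the elongation factor Tufm (-0.44 with sh74, limma adjusted p = 0.597) and the ribosome recycling factor Gfm2 (-0.38 with sh75, limma adjusted p = 0.482).

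Of 26 assembly and rRNA modification factors, 19 were lower with sh74 (median -0.14) and 16 with sh75 (median -0.05). Rpusd3, a pseudouridine synthase family member, was 0.23 lower with sh74 and Rbfa, a small-subunit assembly factor, 0.33 lower with sh75. Of 19 mitochondrial tRNA synthetases, 16 were lower with sh74 (median -0.11) but 8 with sh75 (median 0.01). Rars2, which charges the arginine tRNA, was 0.43 lower with each hairpin, with limma adjusted p-values of 0.703 with sh74 and 0.585 with sh75. Its sh74 values were 6.98 and 7.49, against 7.95, 7.59 and 7.46 in shScramble samples, so sh74 replicate 2 overlapped shScramble. Its sh75 values of 7.26, 7.15 and 7.31 lay below all shScramble values.

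Genes that copy and transcribe mitochondrial DNA were lower in 8 of 9 with sh74 (median -0.22) and in 7 of 9 with sh75 (median -0.24). The DNA polymerase Polg was 0.40 lower and the transcription elongation factor Tefm 0.22 lower with sh74, and the exonuclease Mgme1 was 0.30 lower with sh75 (limma adjusted p = 0.470). Among 9 nuclear regulators the medians were 0.01 with sh74 and -0.08 with sh75. Ppargc1a, a coactivator of mitochondrial biogenesis, was not above the olfactory limit (mean 4.30). Myc was 0.57 lower with sh74 and 0.61 lower with sh75 (limma adjusted p = 0.715 and 0.567). It was at 10.74 and 11.53 in sh74 samples and at 10.88, 10.93 and 11.48 in sh75 samples. The shScramble samples were at 11.79, 11.88 and 11.45, so both hairpin groups overlapped them.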

How the data were processed

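The authors hybridised total RNA from 4T1 cells to Affymetrix Mouse Gene 1.0 ST arrays and deposited log2 values after RMA, which corrects background, normalizes arrays by quantiles and summarises probes. The submitters' processing notes name RMA and the oligo package; versions are not given in the sources used here. Raw scanner intensities were not used here. The 14 samples were grouped by the treatment label. Of 35556 probe sets, 21789 with exactly 1 symbol in GEO's platform annotation were fitted with limma 3.58.1 in R 4.3.3 (one model of 5 groups, empirical Bayes moderation, 9 residual degrees of freedom). P-values were adjusted by Benjamini-Hochberg over all of them, and an adjusted p under 0.05 was the threshold. The step was tested on simulated data with changes far larger than those of the members, so that test does not speak to changes of their size. Quantile normalization makes array distributions alike, so a shift shared by most genes would not be seen, and the number of arrays limits the precision. Each gene was represented by its brightest probe set. Members named are for each comparison and direction the 3 of lowest p, the 5 most and 5 least variable, the widest range in each structural group, with pathway genes taken from the 2 of lowest p per list and comparison. Values in every sample were due for the 4 with the smallest p over the construct comparisons. Mrpl15, Mrps6, Mrpl23, Mrpl13, Mrpl50 and Mrps16, and the extra named members and genes, received values after they were seen. The members and gene lists were chosen with earlier results of these data known, and the structural lists follow general knowledge of the mitoribosome.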

Additional observations from a re-analysis of the deposited data

How the results depend on the processing

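No member was called under the main model, and this held with only the compared groups fitted, with all probe sets of a gene averaged, with arrays centred on their medians, without dim probe sets, with an intensity trend, with adjustment over all probe sets and with the methods' t-test. The compared-groups fit was not run for the over-expression change minus the mean knockdown change, which needs all groups, and the t-test only for comparisons of 2 groups. The result changed when a sample was left out: leaving out 1 sample in turn gave 0 to 1 members called with sh74 and 0 to 1 in the mean of both hairpins, the 1 being Mrpl15 without sh74 replicate 2 (adjusted p = 0.0417 and 0.0465), where 122 and 89 of 21789 probe sets were called in all. Over the same omissions the median change with sh74 ran from -0.32 without sh74 replicate 2 to -0.025 without sh74 replicate 1, and that of sh74 against sh75 from -0.25 without sh74 replicate 2 to 0.12 without sh74 replicate 1. The sh74 change of Mrps6 ran from -0.042 without sh74 replicate 1 to 0.465 without sh74 replicate 2, and the over-expression change of Mrpl51 from -0.027 without CNOT7 over-expression replicate 1 to 0.220 without CNOT7 over-expression replicate 2, so both changed sign. A lone sh74 sample was assumed to vary like the other groups. The cause was not tested beyond the fewer samples. Mean member correlation was 0.13 over the 9 samples without a Cnot7 hairpin, an alternative chosen after seeing the data. The numbers in the sample titles, whose meaning is not given, were used as a replicate block only for sh75 against shScramble: the median was -0.08, 2 members were lower and 1 higher at an unadjusted p under 0.05, and 2 probe sets in all were called, against 20 without the block. Within the shared numbers the median was -0.05 in number 4 (1 against 1 sample) and -0.06 in number 5 (2 against 1). For the other comparisons the block could not be fitted, because the groups compared share too few numbers, so construct and number cannot be told apart.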
